A study of Mus musculus with 24 samples.

Results

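Complement components were followed here in the RNA of extracellular vesicles from mouse plasma, as 9 genes chosen by name: C3, C4b, Cfb, C1s1, Cfi, C9, Hc, C2 and Masp1. They were found by gene symbol, and all 9 have a row among the 21960 genes of the count table. The mice were male C57BL/6J animals in 4 groups of 6, with 1 library per animal: bile duct ligation or sham surgery, each sampled 8 or 15 days after the operation. Ligation blocks bile flow and is a standard model of cholestatic liver injury, in which fibrosis develops, and the study asked whether liver RNA in circulating vesicles marks early cholestasis-induced fibrosis. No genetic change or drug was given in the labels, which name no age. Vesicles were precipitated from EDTA plasma with a polymer reagent, and such a precipitate may hold other RNA of plasma besides that of vesicles.

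Complement is a cascade of plasma proteins that marks microbes, immune complexes and damaged cells. The classical pathway (started by C1 on antibody) and the lectin pathway (started by MASP proteases on sugars) both cleave C4 and C2, the alternative pathway runs through factor B, and all of them meet at C3. Cleaved C3 coats surfaces and leads to cleavage of C5, from which the membrane attack complex is built, ending with C9. Hepatocytes make most of the plasma complement proteins, and several of them are also made by macrophages, fibroblasts, endothelial cells and adipocytes.

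Libraries held between 101733 and 937963 counts. At day 8, those numbered 1 to 3 held at most 349386 and those numbered 4 to 6 at least 535737, in ligated and sham animals alike. The libraries numbered 4 to 6 also held more platelet RNA (summed level of 6 markers 2681 to 6595 CPM, against 831.8 to 2614 in those numbered 1 to 3), where CPM is the usual per-library scaling of counts to a common library size. The erythroid markers moved with ligation at day 8 (6 of 6 rose, median log2 fold change 1.06) and 0 of 6 at day 15. Transcripts of 30 secreted hepatocyte proteins, among them albumin, were used as a reference for liver RNA. Their summed level was 589 to 8005 CPM in ligated libraries at day 8 and 4376 to 32380 at day 15, against 53.4 to 163 and 92.5 to 235 in sham libraries. Albumin (Alb) itself had a mean of 503 and 2876 CPM after ligation and 10.2 and 18.7 CPM after sham surgery, with counts in 4 of 6 sham libraries at each day. The tissue label of liver thus had little of its defining RNA behind it in sham vesicles.

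The 9 genes took a mean of 0.0693% ± 0.0458 (SD, n = 6) of all counts in ligated animals at day 8 and 0.0274% ± 0.0271 in sham animals. At day 15 the shares were 0.168% ± 0.0955 and 0.0433% ± 0.0223. C3 alone supplied 78.3% to 81.0% of these counts in the 4 groups. At day 8 the mean share in ligated libraries was 2.53 times that in sham libraries, and 4.04 times without sham library 1, which had the most C3 of its group. The filter on low counts kept 4 of them, C3, C4b, Cfb and C1s1, among 4112 genes in all. The other 5 (Cfi, C9, Hc, C2 and Masp1) had at most 103 counts over any group of 6 libraries, and were tested by an exact permutation test on normalised CPM.

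**Figure D1:**
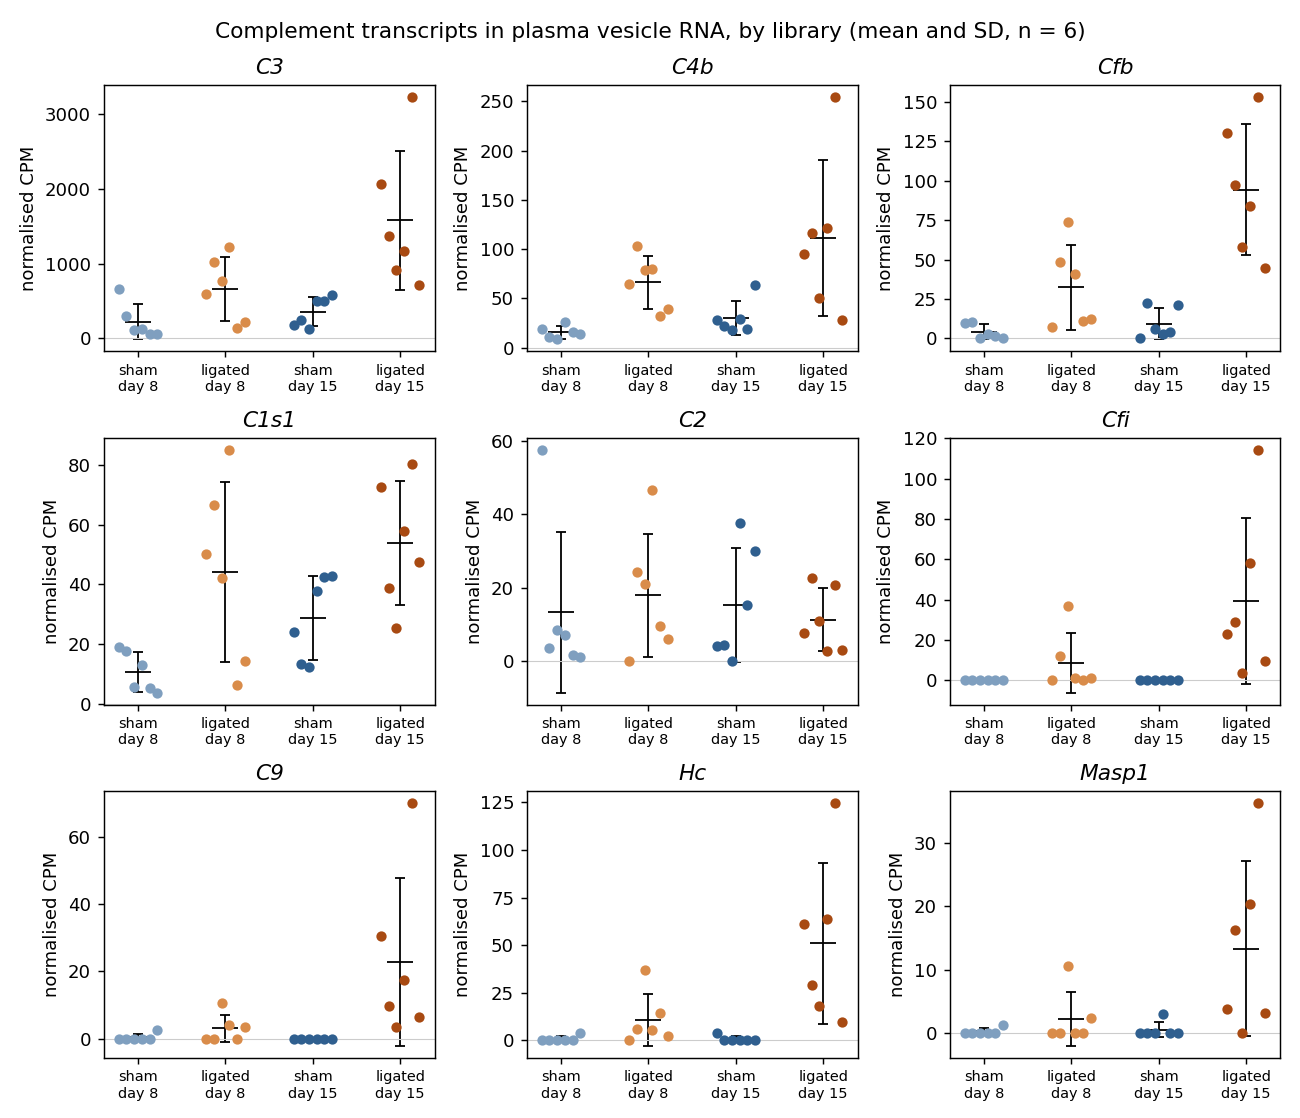
Normalised level of each complement gene (CPM, vertical axis) in each of the 24 libraries, with a panel for each gene; points are libraries, and black marks and bars are the group mean and SD (n = 6). C3 was at least 719 in every ligated library of day 15, while Cfi and C9 were at 0 in every sham library of day 15.

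By edgeR's quasi-likelihood test with Benjamini-Hochberg adjustment over all kept genes, 3 of the 4 kept genes rose with ligation at day 8: C4b, Cfb and C1s1. At that day 2.77% of all kept genes were called higher. At day 15, 3 of 4 rose, namely C3, C4b and Cfb, where 3.48% of all kept genes were called higher. The median log2 fold change of the 4 was 2.04 at day 8 and 2.01 at day 15, and the median of all kept genes was 0.02 and -0.02. None of the 4 fell. The other 5 genes were not in this fit, so the counts do not cover the whole set. The filter can keep a gene for its ligated libraries alone, as it did Cfb, with at most 5 counts in any sham library. C4b and C1s1 also needed ligated libraries to be kept, while C3 did not. The number of calls and the medians of the 4 are therefore not independent of the filter.

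C3 is the protein on which all activation pathways converge, and it was the most abundant of the 9 in every group. At day 8 the lowest, median and highest ligated libraries held 140.5, 683.3 and 1224 CPM, and the sham libraries 58.7, 118.5 and 659.7. The groups overlapped, and sham library 1 lay above 3 of the 6 ligated libraries. The log2 fold change was 1.71 (SE 0.56) and did not pass the test (edgeR adjusted p = 0.104). The replicate number follows library depth at day 8, and the labels name no pairing of animals. With that number as a block, the value was 1.82 with an edgeR adjusted p of 0.00662. Without sham library 1 it was 2.34 (edgeR adjusted p = 0.0188).

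At day 15 the ligated libraries held 719.2, 1265 and 3224 CPM of C3 and the sham libraries 129.7, 369.2 and 581. Every ligated library lay above every sham library, and C3 rose by 2.14 on the log2 scale (SE 0.55, edgeR adjusted p = 0.0195). The call rested in part on ligated library 5, the highest: without it the value was 1.81 (edgeR adjusted p = 0.072). More vesicles from one kind of cell and more C3 RNA per vesicle cannot be told apart in these bulk samples, and this holds for each gene described here.

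C3 (ENSMUSG00000024164) spans chr17:57203970-57228136 on the minus strand of GRCm38 and has 41 exons. The stretch of 250 bases before its start is shown because C3 carries most of the counts and is a textbook acute-phase gene, a class induced in hepatocytes through C/EBP and STAT factors. Its sequence, from RefSeq (GRCm38.p6), lies at chr17:57228137-57228386 and is written along the minus strand, 5′ to 3′, with a match to the C/EBP-type letters TTGCNNAA in capitals.
C3: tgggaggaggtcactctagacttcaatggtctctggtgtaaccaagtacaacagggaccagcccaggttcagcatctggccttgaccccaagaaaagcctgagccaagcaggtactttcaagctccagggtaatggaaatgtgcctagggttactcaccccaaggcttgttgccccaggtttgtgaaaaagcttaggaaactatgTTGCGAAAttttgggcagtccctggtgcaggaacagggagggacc
The match TTGCGAAA lies 45 to 38 bases before the start. On both strands, these letters occur in 9.56% of the 32851 promoter windows of that length. Letters of the STAT type, TTCNNNGAA, occur in 7.02% of the windows and in none of the members' windows, which were found for 4 of the 9 genes. With so few windows, that absence says little. A TATA box, TATAAA, occurs in 12.4%.

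C1s1 encodes a C1s protease, the enzyme of the C1 complex that cleaves C4 and C2. Its ligated libraries at day 8 held 6.39, 46.2 and 84.9 CPM (lowest, median and highest), and its sham libraries 3.82, 9.35 and 19.1. The deep ligated libraries 5 and 6 lay among the sham values, and the other 4 lay above all of them. C1s1 rose by 2.16 on the log2 scale at day 8 (SE 0.54, edgeR adjusted p = 0.0229). This call was lost on leaving out any one of ligated libraries 2 or 4 or sham libraries 3, 5 or 6, with values of 1.58 to 2.08 and edgeR adjusted p up to 0.144.

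At day 15 the C1s1 values were 25.3, 52.8 and 80.4 CPM after ligation and 12.4, 30.9 and 42.7 after sham surgery. The groups overlapped, and the log2 fold change of 0.85 (SE 0.47) did not pass the test (edgeR adjusted p = 0.353). C1s1 (ENSMUSG00000038521) lies at chr6:124530345-124542359 on the minus strand of GRCm38. A near relative, C1s2, had at most 2 counts in any group.

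C4b encodes complement C4, which C1s and the MASP proteases split to start the classical and lectin C3 convertase. At day 8 the ligated libraries held 31.9, 71.9 and 103 CPM and the sham libraries 8.58, 15.0 and 26.0. Of the 9 genes, C4b was the one for which every ligated library lay above every sham library at day 8, a pattern found in 0.641% of the 18710 genes with a count. C4b rose by 1.93 on the log2 scale (SE 0.44, edgeR adjusted p = 0.0171). Within the day 8 libraries numbered 1 to 3 the value was 2.81 (edgeR adjusted p = 0.00423), and within those numbered 4 to 6 it was 1.42 (edgeR adjusted p = 0.159).

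At day 15 C4b was at 28.5, 106 and 254 CPM in ligated libraries and 18.5, 25.1 and 64.1 in sham libraries. The rise was 1.88 on the log2 scale (SE 0.42, edgeR adjusted p = 0.00597), although sham library 6 lay above ligated libraries 3 and 6. The call for C4b held at both days when any single library was left out (1.78 to 2.20 at day 8, 1.44 to 2.22 at day 15). C4b (ENSMUSG00000073418) lies at chr17:34728380-34743882 on the minus strand. Its near-identical copy C4a was not analysed here, and no source used here says how reads of the pair were divided, so the C4b values are uncertain in that respect.

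C2 encodes the protease that joins C4b in the classical C3 convertase, and its libraries overlapped between operations at both days. At day 8 ligated libraries held 0, 15.4 and 46.6 CPM and sham libraries 1.27, 5.37 and 57.4. The mean was 17.9 ± 16.8 against 13.3 ± 21.8 (SD, n = 6, exact permutation test, two-sided p = 0.643). At day 15 it was 11.3 ± 8.59 in ligated and 15.2 ± 15.4 in sham libraries (exact permutation p = 0.597). Pooled over libraries, C2 had 53 counts after ligation and 17 in sham animals at day 8, a ratio of 3.23 (95% counting interval 1.84 to 5.95). That ratio was 1.59 without ligated library 4, which held 34 of the 53 counts. The highest sham value at day 8, in library 1, rested on 6 counts, and without that library the difference in means went from 4.62 to 13.4 CPM. In a fit of all genes without the filter, the log2 fold change at day 8 was 1.41 (unadjusted p = 0.0066, edgeR adjusted p = 0.218). No difference was detectable over animals at this depth, with 22 and 26 counts over the groups of day 15.

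Cfb encodes factor B, the C2 counterpart of the alternative pathway, and its gene lies 85 bases from C2 on the same strand. Cfb had the largest log2 fold changes of the 4 kept members at both days. Ligated libraries at day 8 held 7.18, 26.5 and 73.9 CPM and sham libraries 0, 2.33 and 10.6. Ligated library 1 alone lay below the highest sham values, and Cfb rose by 3.31 on the log2 scale (SE 0.72, edgeR adjusted p = 0.0107). The whole sham group of day 8 held 7 counts of Cfb, against 70 in the ligated group.

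At day 15 the ligated libraries held 44.4, 90.7 and 153 CPM of Cfb and the sham libraries 0, 5.01 and 22.1, without overlap. The rise was 3.36 on the log2 scale (SE 0.59, edgeR adjusted p = 0.000378). The Cfb calls held at both days when any single library was left out (2.89 to 3.89 at day 8, 3.09 to 3.80 at day 15). Cfb (ENSMUSG00000090231) lies at chr17:34856374-34862518 and C2 (ENSMUSG00000024371) at chr17:34862604-34898265, both on the minus strand of GRCm38. The difference between these neighbours was not tested. A predicted gene, Gm20547, overlaps both on the same strand and had 25 counts in all 24 libraries, so a few reads may have been divided among the 3.

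**Figure D2:**
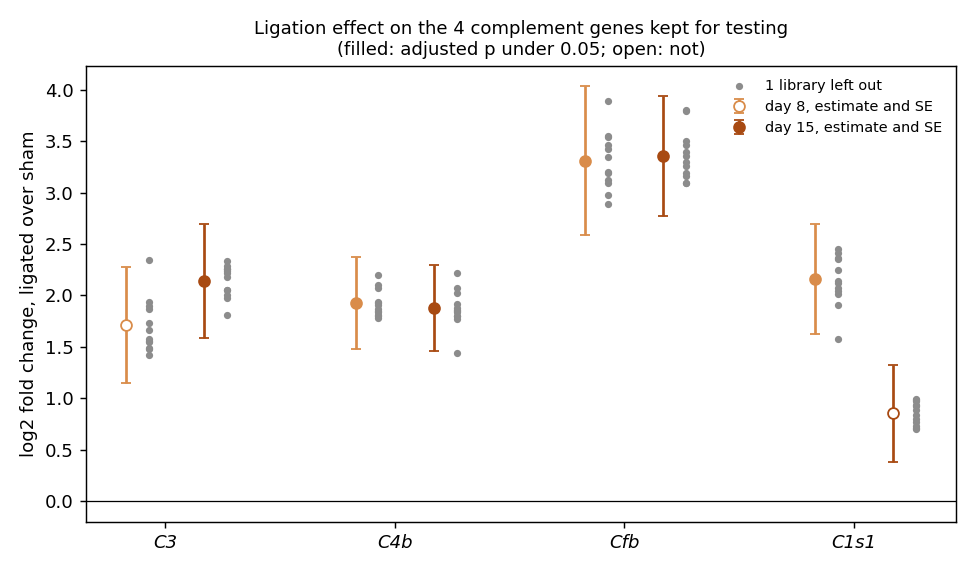
Log2 fold change of ligated over sham libraries (vertical axis) for the 4 complement genes kept by the filter, at day 8 and day 15, with bars for 1 standard error of the edgeR fit and filled points for adjusted p under 0.05. Cfb has the largest values at both days (3.31 and 3.36), and C1s1 moves from 2.16 at day 8 to 0.85 at day 15.

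Cfi encodes factor I, the plasma protease that inactivates C3b and C4b. Its gene (ENSMUSG00000058952) lies at chr3:129835884-129875332 on the plus strand of GRCm38. It had 0 counts in all 12 sham libraries. In ligated libraries it had 11 counts in 4 libraries at day 8 and 83 counts in all 6 at day 15. The lowest, median and highest values were 0, 1.28 and 37.0 CPM at day 8 and 3.61, 26.0 and 114 at day 15. Ligated library 5 supplied 44 of the 83 counts of day 15, and ligated library 3 supplied 1. Set against a floor of 3 counts over the sham group, Cfi was at least 3.8-fold higher after ligation at day 8 and at least 21.6-fold higher at day 15. Without ligated library 3 of day 8, with 7 of the 11 counts, the bound was 1.49, and without ligated library 5 of day 15 it was 12.7. The exact permutation p (two-sided) was 0.0606 at day 8 and 0.00216 at day 15, the smallest that 6 against 6 allows.

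C9 forms the ring of the membrane attack complex, and Hc encodes complement C5, whose cleavage starts that complex. C9 (ENSMUSG00000022149) lies at chr15:6445327-6498751 on the plus strand and Hc (ENSMUSG00000026874) at chr2:34983331-35061438 on the minus strand of GRCm38. C9 had 8 counts in ligated and 2 in sham libraries at day 8, and 47 and 0 at day 15. Its ligated libraries of day 15 held 3.61, 13.6 and 70.0 CPM, and it was at least 12.2-fold higher than in sham animals, or at least 6.52-fold without ligated library 5, which held 27 of the 47 counts. At day 8 the ligated group held 23 counts of Hc and the sham group 3, a ratio of 7.94 (95% counting interval 2.4 to 41.3). At day 15 the ligated group held 103 counts of it, at 9.51, 45.1 and 125 CPM, and the sham group 1, a ratio of 80.3 (14.1 to 3200). Intervals and floors cover counting error only and not the spread between animals, since counts were pooled over the libraries of a group. No molecular identifiers are named, so repeat reads of a molecule may be counted, and even counting error may be understated.

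Every ligated library lay above every sham library for both terminal genes at day 15. For C9, as for Cfi, ligated library 3 did so with 1 count, against 0 in every sham library. Ligated libraries of day 15 were deeper, at 315404 to 465744 counts, against 157133 to 351201 in sham libraries. A separation of 1 count from 0 depends on depth. The exact permutation p (two-sided) for C9 was 0.182 at day 8 and 0.00216 at day 15, and for Hc it was 0.0281 and 0.00216. The Hc value of day 8 was 0.0866 on leaving out any of sham libraries 1 to 5, by the same exact test. Those libraries held no Hc count and the group sizes were then unequal, so this does not show dependence on 1 sham animal. The Hc difference in means went from 10.2 to 5.02 CPM without ligated library 3. With Cfi, C3 and Cfb, this made 5 of the 9 genes without overlap at day 15, where 1.61% of the 18710 genes with a count had that pattern. Adjusted over those genes, the permutation p was 0.117 for Cfi, C9 and Hc, and 0 genes passed by that test at either day (1184 genes at day 8 and 1856 at day 15 had an unadjusted p under 0.05).

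The promoter windows of the terminal genes are shown for comparison with that of C3, since their counts lay mostly in ligated libraries while C3 had counts in every library. The sequences come from RefSeq (GRCm38.p6), at chr15:6445096-6445345 on the plus strand for C9 and chr2:35061413-35061662 on the minus strand for Hc. Each runs 5′ to 3′ toward the start, with a TTGCNNAA match (C9) or a TATAAA match (Hc) in capitals.
C9: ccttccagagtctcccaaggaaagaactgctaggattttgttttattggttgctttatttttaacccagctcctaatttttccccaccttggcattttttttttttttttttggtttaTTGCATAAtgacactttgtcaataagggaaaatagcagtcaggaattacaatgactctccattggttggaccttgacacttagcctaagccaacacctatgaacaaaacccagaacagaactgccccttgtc
Hc: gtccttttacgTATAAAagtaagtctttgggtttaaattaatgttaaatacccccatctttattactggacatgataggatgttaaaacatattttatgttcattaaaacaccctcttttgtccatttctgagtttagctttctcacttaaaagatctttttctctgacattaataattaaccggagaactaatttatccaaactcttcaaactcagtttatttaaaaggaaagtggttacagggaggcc
The C9 match lies 132 to 125 bases before the RefSeq start and the Hc match 239 to 234 bases before it. Those starts lie inside the GENCODE genes given above, so each window reaches a short way into them. The Hc window holds no TTGCNNAA match, and 1 of 2 windows of C1s1 holds one (TTAGGCAA on the other strand as read here). Windows were found for 4 of the 9 genes. These are matches of letters and were not tied to any measured binding.

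Masp1 encodes a protease that activates the lectin pathway, and it was the least abundant per transcript length after ligation. Its gene (ENSMUSG00000022887) lies at chr16:23449417-23520815 on the minus strand of GRCm38. It had 4 counts in ligated and 1 in sham libraries at day 8, a ratio of 4.14 (95% counting interval 0.41 to 204). At day 15 it had 28 counts in 5 of 6 ligated libraries and 1 in the sham group, a ratio of 21.8 (3.61 to 892). The ligated libraries of day 15 held 0, 10.0 and 36.3 CPM and the highest sham library 2.90 (exact permutation test, two-sided p = 0.0152, adjusted over all genes 0.267). On leaving out any one of the 6 sham libraries, that exact p was above the threshold, at 0.0736. Only 1 of those libraries held a Masp1 count, and the group sizes were then unequal. This higher p therefore does not show that the difference rested on 1 sham animal. The groups overlapped through ligated library 3, which held no Masp1 count. Rtp4 lies on the opposite strand over the first part of Masp1 and had 160 counts in all. No source used here says whether the counting used strand, so the few Masp1 counts are uncertain.

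A fit of all 18710 genes with a count, without the filter, placed the low genes on the same scale as the others. By this edgeR quasi-likelihood test 6 of the 9 passed at day 8 (C3, C4b, Cfb, C1s1, Cfi and Hc), with 1.41% of all genes called higher. At day 15 it was 7 of 9, all but C1s1 and C2, with 2.96% called higher. From day 8 to day 15, 6 of 9 passed after ligation (2.01% of all genes called higher) and 2 of 9 in sham animals, C3 and C1s1 (0.203%). The edgeR adjusted p at day 15 was 2.6e-10 for Cfi, 9e-06 for C9, 6.21e-12 for Hc and 0.012 for Masp1. In this fit the standard error of C3 at day 8 was 0.23 instead of 0.56, so the fit with the filter gave the wider error for C3. The edgeR adjusted p of C3 at day 8 was 3.12e-11 here and 0.104 with the filter. By the exact permutation test at day 15, p adjusted over all genes was 0.117 for Cfi, C9 and Hc and 0.267 for Masp1. The p values and calls of the fit without the filter are therefore not strong evidence on their own.

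The size of the ligation effect was compared between the days through the interaction term. The difference, day 15 minus day 8, was 0.43 (SE 0.77) for C3, -0.05 (0.52) for C4b and 0.05 (0.83) for Cfb on the log2 scale. For C1s1 it was -1.31 (SE 0.72, unadjusted p = 0.0792, edgeR adjusted p = 0.898). None of the 4 passed by edgeR, where 0% of kept genes were called higher, 0 in either direction, and 234 genes had an unadjusted p under 0.05. The 95% interval of the difference, from the SE, was -1.08 to 1.94 for C3, -1.07 to 0.97 for C4b, -1.57 to 1.67 for Cfb and -2.72 to 0.10 for C1s1, so these data do not show that the days were alike.

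Within the ligated animals, Cfb rose from day 8 to day 15 by 1.70 on the log2 scale (SE 0.47, edgeR adjusted p = 0.0358). It was the 1 kept gene of 4 to pass, and 2.26% of all kept genes were called higher and 2.09% lower. This call was lost in 8 of the 12 fits that left out 1 ligated library (1.44 to 2.02). C3, C4b and C1s1 differed by 1.26 (SE 0.53, edgeR adjusted p = 0.203), 0.86 (SE 0.37, edgeR adjusted p = 0.22) and 0.39 (SE 0.44, edgeR adjusted p = 0.703). Among the low genes, the count ratio of day 15 to day 8, scaled for depth, was 10.7 for Cfi (95% counting interval 5.68 to 22.3), 8.33 for C9 (3.9 to 20.4), 6.35 for Hc (4.01 to 10.5) and 9.93 for Masp1 (3.47 to 38.9). For C2 it was 0.589 (0.341 to 0.985). By the exact permutation test over animals these differences had two-sided p of 0.0952 for Cfi, 0.026 for C9, 0.0368 for Hc, 0.0736 for Masp1 and 0.444 for C2, each 0.505 or more after adjustment over all genes.

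In the sham animals 0 of the 4 kept genes passed between the days by edgeR, where 0% of all kept genes were called higher and 439 had an unadjusted p under 0.05. The differences, day 15 minus day 8, were 0.83 (SE 0.56) for C3, 0.90 (0.50) for C4b, 1.65 (0.93) for Cfb and 1.70 (0.58) for C1s1. All 4 were above 0, with a median of 1.28 against 0.02 for all kept genes. C1s1 had the smallest unadjusted p, 0.00652 (edgeR adjusted p = 0.331). The 4 genes therefore had higher estimates at day 15 in both kinds of animal, in tests where only Cfb after ligation passed. For C3 in sham animals the estimate followed the day 8 depth split. Its mean was 359.9 CPM in day 8 libraries 1 to 3 and 80.2 in libraries 4 to 6, against 354.5 at day 15. The sham means of C4b, Cfb and C1s1 were below those of day 15 in both parts of day 8.

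The counts of each gene were set against those of the 30 hepatocyte transcripts of the same libraries, and the values are described by gene. Per 1000 hepatocyte counts, C3 had 1370 counts in sham animals at day 8 and 2340 at day 15, but 389 and 116 in ligated animals. C4b had 174 and 189 in sham animals, and 38.0 and 8.41 after ligation. C1s1 went from 90.9 and 189 to 26.0 and 3.90, and C2 from 64.4 and 109 to 13.3 and 0.826. Cfb was less far apart, at 26.5 and 54.6 in sham animals against 17.5 and 6.83 in ligated animals. The ratios of day 8 rested in part on ligated library 4: without it C3 had 210, C1s1 13.3 and C2 6.01. For C3, C4b, C1s1 and C2 the exact counting intervals of sham and ligated animals did not overlap at either day, and for Cfb they overlapped at day 8 and not at day 15. Single libraries did overlap at day 8: C3 ran from 96.3 to 1070 in ligated and from 454 to 4060 in sham libraries, C1s1 from 5.28 to 74.1 and from 27.8 to 185, and C2 from 0 to 40.6 and from 9.26 to 353. The ratio falls wherever hepatocyte counts rise more than those of the gene, so a lower ratio is no fall of the gene itself.

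For Cfi, C9, Hc and Masp1 the ratios to the hepatocyte counts at day 8 rested on 4 to 23 counts. Cfi had 2.75 per 1000 at day 8 (95% exact interval 1.37 to 4.93) and 3.11 at day 15 (2.48 to 3.86). C9 had 2.00 (0.864 to 3.95) and 1.76 (1.30 to 2.35), Hc had 5.76 (3.64 to 8.65) and 3.87 (3.15 to 4.69), and Masp1 had 1.00 (0.273 to 2.56) and 1.05 (0.698 to 1.52). The intervals of the days overlap for each of the 4 genes, but they are wide at day 8 and do not show that the ratios were equal. Without ligated library 3 of day 8, which held 7 of the 11 Cfi counts, the Cfi ratio was 1.61, and without library 5 that of Hc was 3.86. Sham libraries held 264 and 238 hepatocyte counts in all, so a ratio like that of ligated animals would give under 2 counts of each of these genes, and the sham values say little. The ratio itself was not tested across animals.

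**Figure D3:**
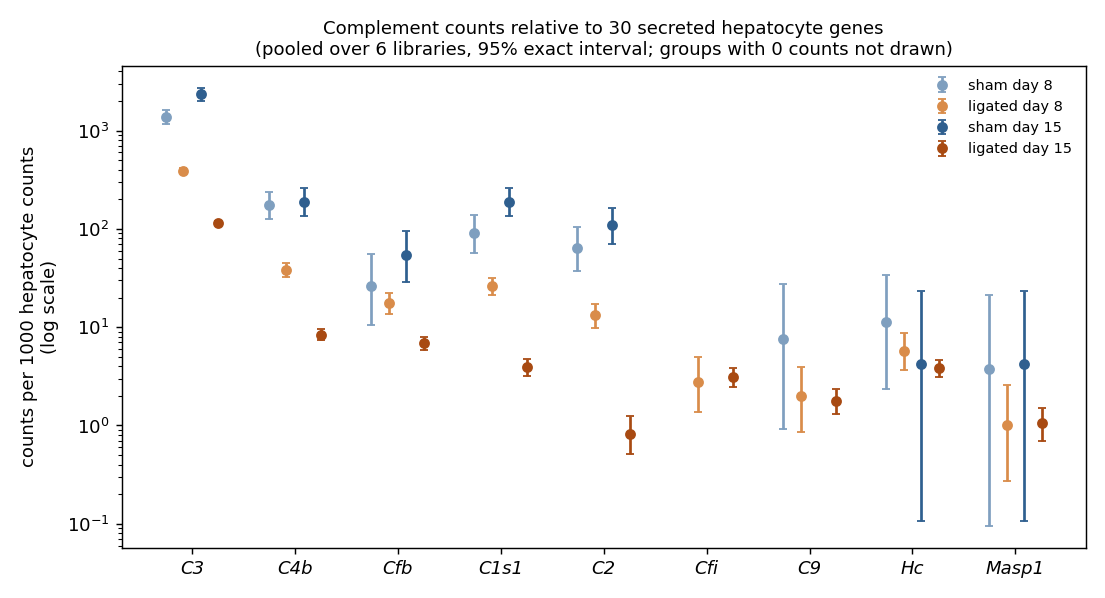
Counts of each complement gene per 1000 counts of 30 hepatocyte transcripts (log axis) in the 4 groups, summed over 6 libraries, with exact 95% intervals for counting error. Groups with 0 counts are not drawn. C3, C4b, C1s1 and C2 step down from sham to ligated groups at both days, and Cfb at day 15 (54.6 to 6.83). A separate comparison, between the ligated days, gives overlapping intervals for Cfi, C9, Hc and Masp1. The sham values of Cfi, C9, Hc and Masp1 rest on 0 to 3 counts.

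Single libraries varied widely. Ligated library 3 of day 8 held 8005 CPM of hepatocyte transcripts, where the other 5 held 589 to 1328. It also had the highest Cfi (37.0 CPM), C9 (10.6), Hc (37.0), Masp1 (10.6) and Cfb (73.9) of its group, with 2 counts each of C9 and Masp1. Library 5, the lowest in hepatocyte RNA at 589 CPM, had the second highest Hc, 14.4 CPM from 9 counts. The C3 of library 3 (770.9) was below that of libraries 2 (1016) and 4 (1224). The C4b (79.2) and C1s1 (42.2) of library 3 were within the range of the others. At day 15, ligated library 5 held most of both, with 32380 of hepatocyte transcripts and 3224 of C3, and library 6 least of both, with 4376 and 719.2. Across those 6 libraries C3 ran from 99.6 to 170 per 1000 hepatocyte counts, and at day 8 from 96.3 to 1070.

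**Figure D4:**
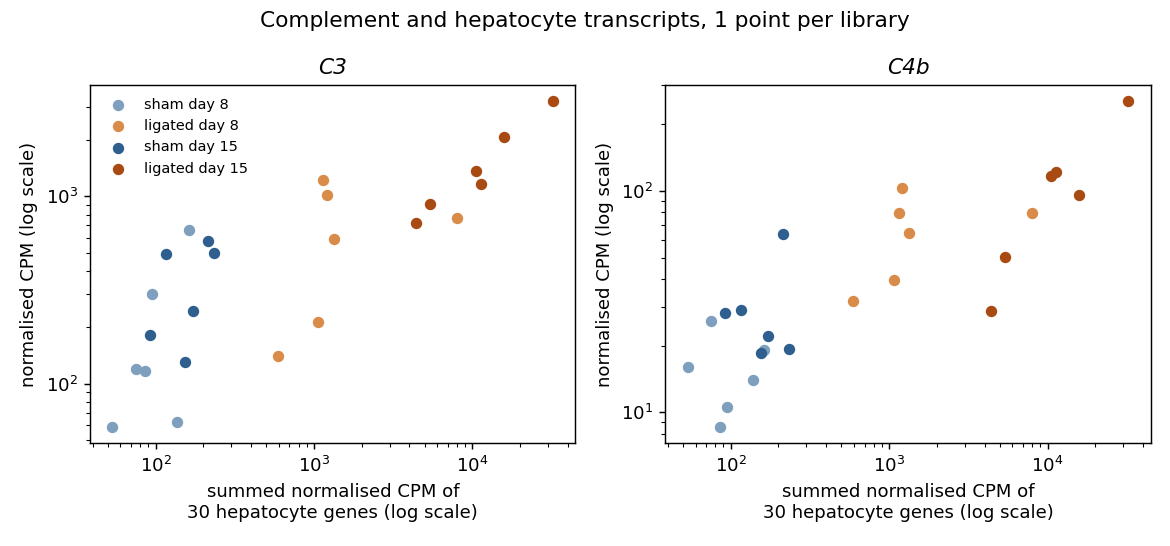
Level of C3 and C4b (CPM, log axis) against the summed level of 30 hepatocyte transcripts (CPM, log axis), with 1 point per library. Sham libraries lie at 53.4 to 235 on the horizontal axis with C3 up to 659.7, and ligated libraries of day 15 lie at 4376 to 32380 with C3 of 719.2 to 3224.

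With library size set to hepatocyte counts instead of all genes, day 15 against day 8 in ligated animals gave -1.86 for C3 (edgeR adjusted p = 0.0112), -2.53 for C4b (0.000709), -1.25 for Cfb (0.0617) and -2.64 for C1s1 (0.000332). On that scale 97.9% of 3013 kept genes were called lower and their median was -2.98, so all 4 genes lay above the median of all genes. Of the 30 transcripts themselves, 21 were kept and 20 rose from day 8 to day 15 (median log2 fold change 2.87 with all genes as the library size).

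Other cell types were checked through marker lists in the same libraries. Of 10 macrophage and Kupffer markers, 3 of which (C1qa, C1qb and C1qc) are complement genes too, 1 was kept and it did not pass in any comparison. Their summed level ran from 111 to 176 and from 101 to 183 CPM in ligated libraries of day 8 and 15, and from 49.8 to 163 and 60.8 to 235 in sham libraries. The Kupffer cell marker Clec4f had 0 and 6 counts in ligated libraries of day 8 and 15, and 2 and 7 in sham libraries. Other markers of resident macrophages went the other way: Marco had 7 and 18 counts after ligation against 1 and 0 in sham animals, and Cd5l 20 and 22 against 6 and 5. Of 6 stellate and fibroblast markers 4 were kept, and 2 fell with ligation at day 15. Of 6 neutrophil markers, 1 rose at day 8, and of 5 adipocyte markers 1 was kept and did not pass. The part of these cells in the complement values was not tested.

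Per kilobase of transcript, C3 stood first in every group: its level in CPM, divided by length, was 42.9 and 69.0 in sham animals at day 8 and 15, and 128.5 and 307 in ligated animals. In ligated animals of day 15 it was followed by Cfb at 34.3 ± 15.1 (SD, n = 6), C4b at 20.7 ± 14.7, Cfi at 19.0 ± 19.8 and C1s1 at 18.3 ± 7.05. C9 (11.2 ± 12.2), Hc (9.37 ± 7.77), C2 (4.29 ± 3.25) and Masp1 (2.49 ± 2.59) came below. Neighbours in that order from Cfb on differed by less than the larger of their SDs. In sham animals of day 15, C1s1 (9.76 ± 4.77), C2 (5.77 ± 5.85), C4b (5.61 ± 3.19) and Cfb (3.42 ± 3.55) followed C3, and these 4 differed from their neighbours among themselves by less than the larger SD. The order in sham animals of day 8 was C3, C2, C1s1, C4b and Cfb, but without sham library 1 C2 was at 1.69 instead of 5.03, below C1s1 (3.09) and C4b (2.79).

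The kept members moved together across libraries. Over all 24 libraries, which share the group difference, the Pearson correlation of log2 CPM was 0.915 between C3 and C1s1, 0.856 between C3 and Cfb and 0.818 between C3 and C4b. It was lowest between Cfb and C1s1, at 0.709. Of all other named genes, those most like C3 were Pgrmc1 (0.878), Krt8 (0.870) and Rnase4 (0.865), and those most like Cfb were Krt8 (0.930), Trf (0.926) and Plg (0.905). Those most like C4b were Serpina1b (0.875), Trf (0.845) and Bhmt (0.843). For C1s1 they were Rarres2 (0.850), Rnase4 (0.844) and Serping1 (0.782), the last of which encodes the C1 inhibitor. Krt8 encodes a keratin of simple epithelia, Trf transferrin and Plg plasminogen.

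Of 44 other complement genes in the table, 37 fell below the filter and 7 were kept. Of those 7, 0 rose in any of the 5 comparisons by edgeR. Their median log2 fold change was 0.68 at day 8 and 0.16 at day 15. Itgb2, the shared chain of the C3 receptors of leukocytes, fell from day 8 to day 15 in ligated animals by 2.04 on the log2 scale (SE 0.50, edgeR adjusted p = 0.0214). Its day 8 values were 141 to 284 CPM in ligated libraries 4 to 6 and 5.28 to 50.2 in libraries 1 to 3, and its day 15 values were 25.9 to 43.3. It thus followed the day 8 depth split and lay near the shallow libraries at day 15.

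In the fit without the filter, 5 of the 44 passed as higher after ligation at day 8 and 11 at day 15 by edgeR. The shares of all genes called higher were 1.41% and 2.96%. The limit given above for the calls of that fit holds here too. Examples, chosen after their values were seen, are regulators and a terminal subunit. C4bp, whose protein binds C4b as a cofactor of factor I, had 16 and 99 counts after ligation (day 8 and 15) and 0 in both sham groups. Vtn, which encodes vitronectin, an inhibitor of the membrane attack complex, had 35 and 216 after ligation and 6 and 8 in sham animals. C8a, a subunit of that complex, had 21 and 58 against 1 and 1. C4bp, Vtn and C8a thus had counts mostly in ligated libraries, as Cfi, C9 and Hc did. Not every gene that passed did so. Clu, called at day 15, had 1523 and 481 counts after ligation and 1010 and 138 in sham animals (day 8 and 15). Itgam, called at day 8, had 80 and 39 against 28 and 31. Of the 44 genes, 8 had 0 counts in both sham groups and at least 1 in ligated animals at day 15, where 19.3% of the 18710 genes with a count had that pattern. With at least 10 counts in ligated animals at day 15 it was 5 of the 44, where 0.903% of all genes had it. The genes of the C1q subunits had counts in all 4 groups, as C1s1 did.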

How the data were processed

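Per the submitters' processing notes, the authors used STAR and RSEM and deposited expected counts per gene, all whole numbers. The notes name the human build hg38 while the identifiers are mouse genes, so coordinates come from GENCODE M21 (GRCm38), where 21860 of 21960 identifiers were found. Per the labels' protocols, libraries were made without poly(A) selection, and no molecular identifiers are named. Groups come from the sample titles, since the treatment text names ligation for sham animals too. The tissue label reads liver and the site label extracellular vesicles.

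Genes were kept by edgeR's filter (minimum count 10, minimum total 15), which retained 92.3% of counts. Tests used edgeR 4.0.16 (quasi-likelihood, TMM scaling, all 24 libraries, 1 mean per group) with Benjamini-Hochberg adjustment and a threshold of 0.05. Genes below the filter had two-sided exact permutation tests of mean CPM, added after seeing the data. Floors are 3 counts over a group, and intervals are exact (Clopper-Pearson, 95%). DESeq2 1.42.0 was an alternative. Scripts were tested on simulated data. Libraries of one group differed beyond sampling noise (chi-square per degree of freedom at least 1.66).

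Same-numbered libraries deviated together at day 8 (correlation 0.165 to 0.327 in 6 of 6 pairs). Only 3 of the 6 ligated libraries were most like the sham library of their own number. The numbers also follow the split in depth and platelet RNA at day 8, and the labels name no pairing. The block therefore cannot be read as a pairing of animals.

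The members and gene lists were chosen with earlier results of these data known. All 9 members are named, as are other complement genes past the threshold, 3 genes most like each kept member by Pearson correlation, and Alb as a reference. Low counts limit precision most for Cfi, C9, Hc, C2 and Masp1.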

Additional observations from a re-analysis of the deposited data

Results flagged for a closer look

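In 9 of 36 gene and group sets of 6 libraries, and 1 of 8 sets of library shares, the highest library stood apart from the other 5 by Dixon's criterion. In 5 of these, all in sham groups, the library was the only one with any count of the gene, which this criterion always flags. The 36 also include sets without any count, which it cannot flag. Its chance rate of about 1 in 20 is for normally spread values, so 9 of 36 cannot be set against it.

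Ligated library 3 of day 8 stood apart in its hepatocyte share, 0.499% of counts against 0.0558% to 0.110% in the other 5. The same library stood apart for Cfi, the factor I gene, at 37.0 CPM (others 0 to 12.1), and for Masp1, at 10.6 (others 0 to 2.40).

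Sham libraries stood apart in C4b at day 15, where library 6 held 64.1 CPM and the others 18.5 to 29.0, and in C2 at day 8, where library 1 held 57.4 and the others 1.27 to 8.58. Sham library 6 of day 8 was the one with any count of C9 (2.54 CPM), Hc (3.82) and Masp1 (1.27) in its group. At day 15 the single sham counts of Hc (4.02, library 1) and Masp1 (2.90, library 4) were in different animals.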

How the results depend on the processing

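Without the filter on low counts, 6 members were called at day 8, 7 at day 15, 6 for day 15 against day 8 after ligation and 2 between sham groups (C3 and C1s1), against 3, 3, 1 and 0 with it. At day 8, 1 was called with only the groups compared (2 of the 4 then failed the filter), 1 within libraries 1 to 3 and 0 within libraries 4 to 6 (of C3 and C4b, the members kept there). For day 15 against day 8 after ligation, DESeq2 and the replicate block each called 0, and scaling to hepatocyte counts called 3, all lower: C3 -1.86, C4b -2.53 and C1s1 -2.64, with Cfb at -1.25. Leaving out 1 library gave 2 to 4 calls at day 8, 2 to 3 at day 15 and 0 to 1 between ligated days. Apart from C3 at day 8, the replicate block changed no other call of ligation against sham; outside day 8, same-numbered libraries did not deviate together in every pair. The difference between days, never called, changed sign for C3 (-0.20 to 0.72), C4b (-0.49 to 0.30) and Cfb (-0.53 to 0.49) when 1 library was left out, and for Cfb with DESeq2 (-0.051) and the replicate block (-0.025). The C2 difference in mean CPM ran from -1.11 to 13.4 at day 8 and from -6.95 to 0.575 at day 15 on leaving out 1 library. At day 8 it was -8.05 within libraries 1 to 3 and -0.0871 with Lars2 left out of library size. With ligated library 3 of day 8 and ligated library 5 of day 15, the richest in hepatocyte RNA, both left out (chosen after seeing the data), 3 were called at day 8 and 2 at day 15. For changes without a construction named here, the cause was not tested. Low counts limit Cfi, C9, Hc, C2 and Masp1 throughout.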
